A study of Mus musculus with 16 samples.

Results

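The Wnt ligands are secreted signalling proteins, and 9 of their genes were followed through the development of the mouse epididymis: Wnt2, Wnt2b, Wnt4, Wnt5a, Wnt5b, Wnt6, Wnt7b, Wnt9b and Wnt11. They were chosen by symbol, and every probe set (a group of short probes for 1 transcript region) listed for them with a single gene symbol was taken. This gave 17 probe sets for 9 of the 18193 genes that the array lists this way. RNA came from whole epididymides of wild-type CD-1 males, excised at 4 fetal stages, gestational day 12 (gd12), 14 (gd14), 16 (gd16) and 18 (gd18), and on postnatal day 2 (pnd2), with 3 Affymetrix arrays at each stage. The labels place these stages at Theiler stages 20, 22, 24, 26 and 27. CD-1 is an outbred stock, and all 15 samples share the strain, sex and wild-type label. Per the labels the gd12 and gd14 samples were each a pool of 3 and the later ones were not pooled, while the series' design text gives 1 animal per sample, each from a different dam. The spread at gd12 and gd14 may therefore be that between pools. A sixteenth array held RNA of 8 whole newborns, 4 male and 4 female, pooled at postnatal day 0.5, with no strain label.

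Wnt proteins carry a lipid that their membrane partner Wls needs for export and that Frizzled receptors bind. With the co-receptors Lrp5 and Lrp6 they stabilise beta-catenin, which acts with TCF and LEF factors on target genes. Wnt5a and Wnt11 are best known for signals that do not need beta-catenin, through receptors such as Ror2. The epididymis grows from the Wolffian duct, an epithelial tube in mesenchyme. In the mouse, Wnt9b from that epithelium induces the mesonephric tubules, and Wnt4 acts in the tubule mesenchyme and in the ovary.

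The promoters of Wnt4 and Wnt6 are printed because their mean levels lay on opposite sides between gd14 and gd12, a difference called for either gene only when 1 array was left out or under other settings, and that of Wnt11 because it holds a core of the factors that act with beta-catenin. Of the 9 genes, 7 had an entry in the RefSeq promoter table (GRCm38.p6), and Wnt5a and Wnt7b had none. Each sequence is the 250 bases before the annotated start, on the gene's strand. Capitals mark GGGCGG or its other-strand form CCGCCC, the GC box that Sp factors can bind. Wnt4 lies on the plus strand at chr4:137277385-137277634, Wnt6 on the plus strand at chr1:74771642-74771891, and the first of the 2 Wnt11 entries on the plus strand at chr7:98834862-98835111.
Wnt4: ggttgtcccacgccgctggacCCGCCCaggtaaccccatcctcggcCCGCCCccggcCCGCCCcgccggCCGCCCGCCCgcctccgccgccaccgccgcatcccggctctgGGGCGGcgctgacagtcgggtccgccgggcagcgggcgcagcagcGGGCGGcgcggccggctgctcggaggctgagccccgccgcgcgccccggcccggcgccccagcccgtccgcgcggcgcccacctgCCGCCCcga
Wnt6: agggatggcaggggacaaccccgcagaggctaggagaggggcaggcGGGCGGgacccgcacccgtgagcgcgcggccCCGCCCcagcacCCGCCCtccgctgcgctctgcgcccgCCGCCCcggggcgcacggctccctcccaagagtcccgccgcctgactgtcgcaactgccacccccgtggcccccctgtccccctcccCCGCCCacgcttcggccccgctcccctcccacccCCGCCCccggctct
Wnt11: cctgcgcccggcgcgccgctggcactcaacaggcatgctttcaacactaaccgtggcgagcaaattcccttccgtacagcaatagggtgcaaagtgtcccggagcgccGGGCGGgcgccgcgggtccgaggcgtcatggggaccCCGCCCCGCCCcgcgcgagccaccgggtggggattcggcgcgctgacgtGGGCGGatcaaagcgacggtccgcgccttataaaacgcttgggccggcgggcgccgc

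All 3 windows are rich in GC boxes. Wnt4 holds 8, with 2 of them overlapping, Wnt6 holds 6, and Wnt11 holds 4, with 2 overlapping. Of 32851 promoter windows of the same length, 32.7% hold at least 1. The Wnt4 window is 85.2% G and C and has 44 CpG dinucleotides, a number that 0.539% of all windows reach. Wnt6 has 28 CpG and Wnt11 has 37, against a median of 6 over all windows. The letters CTTTGA, the core that TCF and LEF factors bind, were searched on both strands, and so were AGAACA, the half-site of steroid receptors, TATAAA and CCAAT. Neither the Wnt4 nor the Wnt6 window holds any of these 4. The Wnt11 window holds 1 CTTTGA core, read on the other strand, and 1 TATAAA. Of the 10 entries of the 7 genes, the third of Wnt5b also holds 1 CTTTGA, and the second of Wnt11 holds none. Among all windows, 13.8% hold CTTTGA, 16.1% AGAACA, 12.4% TATAAA and 33.8% CCAAT. These matches describe letters and not binding.

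Signal is a scaled intensity with no unit, and it compares stages for 1 probe set, not genes with each other. Tests were run on the 25981 probe sets whose signal was at or above the array median on 3 or more epididymis arrays. Of the 17 Wnt ligand probe sets 14 did so, for 8 genes, and Wnt2b, the second probe set of Wnt7b and the second of Wnt9b did not. A change is called at an adjusted p under 0.05 in a limma model over all 25981 probe sets, on log2(signal + 16). One array stood apart before any result: on pnd2 replicate 3 the 3′ signal of Gapdh was 63.2 times its 5′ signal, against 4.33 to 7.18 on the other 14 arrays, and for Actb 80.7 times, against 2.40 to 4.14. The median signal was 81.2 on it and 110.3 to 133 on the others. Counts of calls are therefore also given without it. Of the 11 duct epithelium markers (keratins, Epcam, Pax8 and others) 10 were on the array and all 10 were kept. Passing this filter does not identify a tissue, since all 6 germ cell markers passed it too. No batch is given in the labels.

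**Figure D1:**
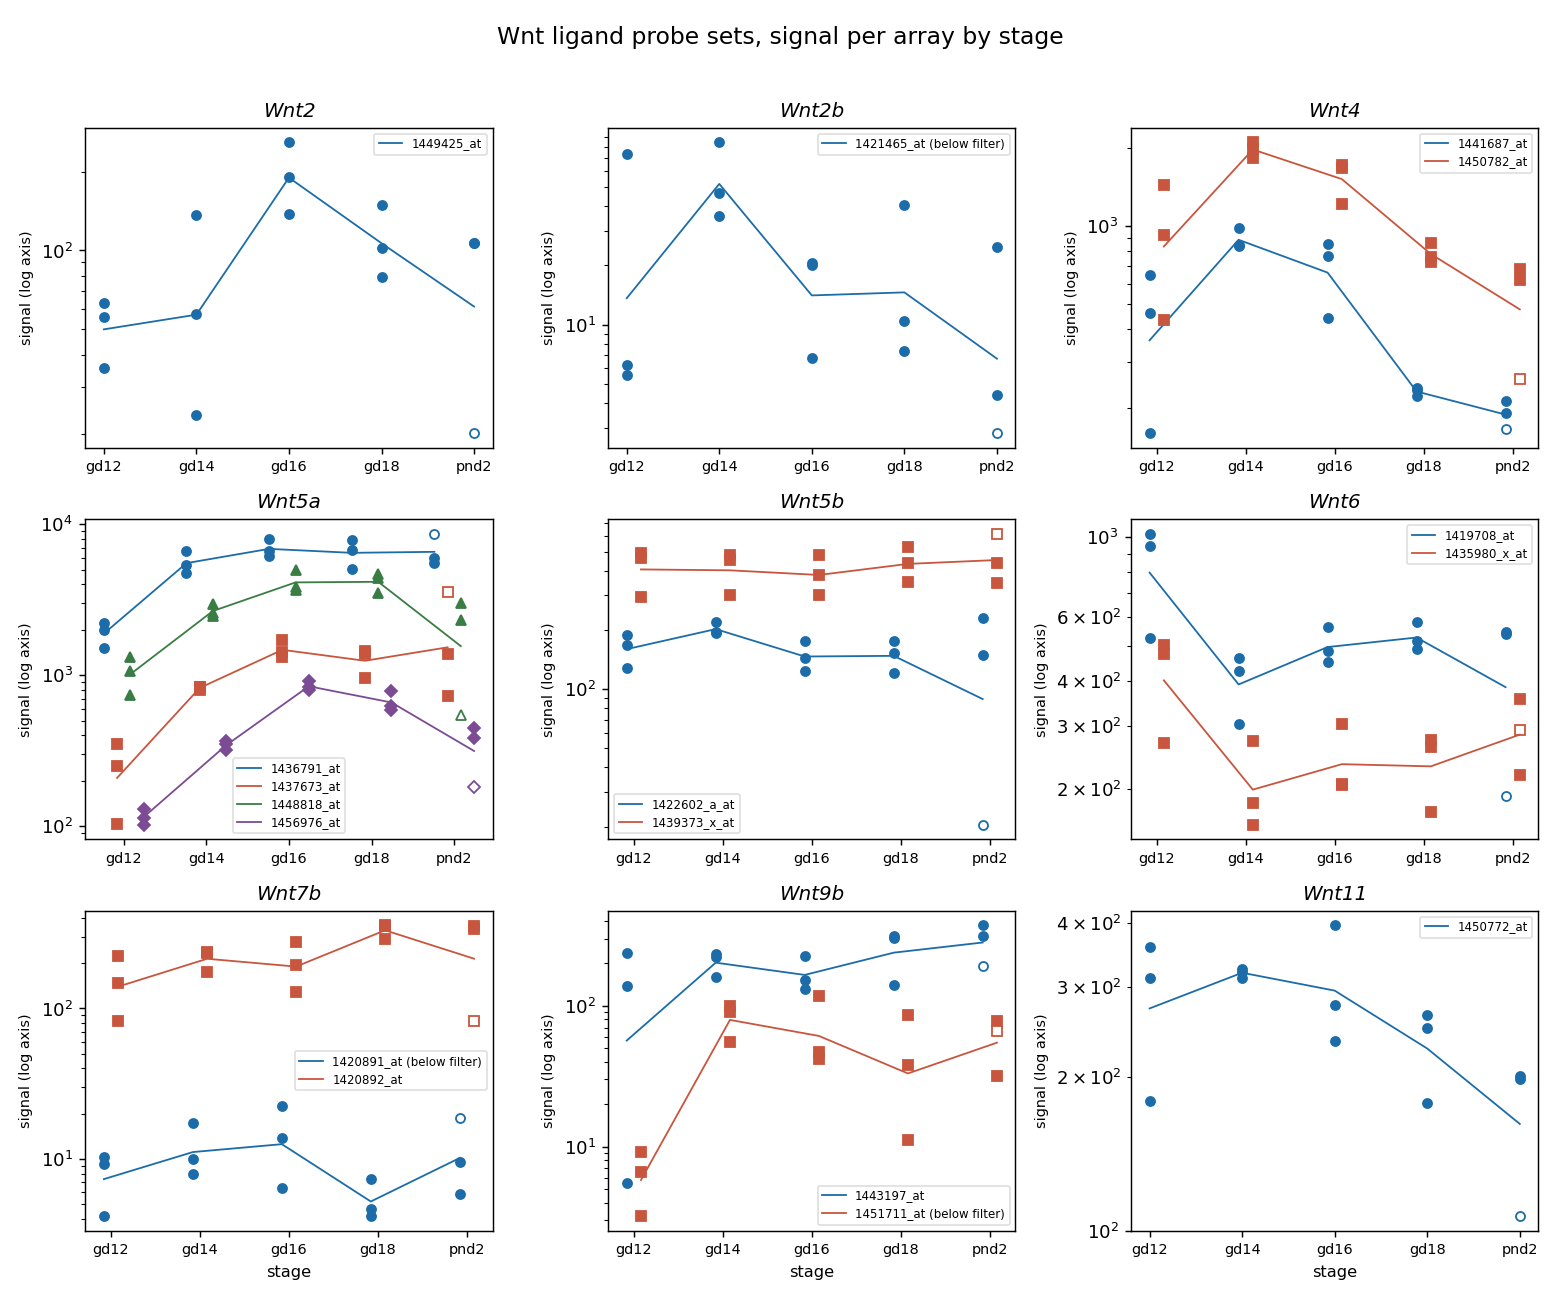
Signal of the 17 Wnt ligand probe sets on each epididymis array (log axis) against stage, 1 panel per gene. Each symbol is 1 array (3 per stage), lines join the geometric means, and the open symbol is pnd2 replicate 3. All 4 Wnt5a probe sets had their lowest stage mean at gd12, and both Wnt4 probe sets their highest at gd14.

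Wnt5a, the ligand of mesenchyme that drives outgrowth of limb, genital tubercle and gut, was higher at gd14 than at gd12 and stayed high through the fetal stages. Probe set 1436791_at had signals of 1511.9, 2229.5 and 1983 at gd12, of 6641, 4738 and 5338 at gd14, of 6643, 7943 and 6115 at gd16, of 5076, 7849.8 and 6752 at gd18, and of 5507, 5934 and 8622 at pnd2. All 12 later arrays lay above all 3 arrays of gd12. The log2 change was 1.54 ± 0.22 (SE, n = 3 per stage, adjusted p = 0.000509) for gd14 against gd12, a 2.91-fold higher level, and 1.77 ± 0.22 (adjusted p = 6.86e-05) for gd18 against gd12. No later step of this probe set was called, with log2 changes of 0.31 ± 0.22, -0.09 ± 0.22 and 0.02 ± 0.22 for gd16 against gd14, gd18 against gd16 and pnd2 against gd18. The order of its stages, from high to low, was gd16, pnd2, gd18, gd14 and gd12, and only gd12 stood clear of its neighbour.

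The other Wnt5a probe sets had the same low start. Probe set 1456976_at averaged 115 ± 13.8 at gd12, 343.7 ± 23.2 at gd14, 845 ± 56.8 at gd16, 664 ± 103 at gd18 and 338 ± 140 at pnd2 (SD, n = 3 each). It was 2.75-fold higher at gd14 than at gd12 (log2 change 1.46 ± 0.27, adjusted p = 0.0032). It was 2.39-fold higher at gd16 than at gd14, with no overlap of arrays, and this was called without pnd2 replicate 3 (1.26 ± 0.16, adjusted p = 0.00125) and not with it (adjusted p = 0.153). Probe set 1437673_at was 3.70-fold higher at gd14 than at gd12 (1.89 ± 0.46, adjusted p = 0.0192). That call was lost without gd12 replicate 13 or any 1 of the 3 gd14 arrays, with adjusted p up to 0.0868. Probe set 1448818_at was 2.60-fold higher (1.38 ± 0.45) and not called with all arrays (adjusted p = 0.0754), and called without pnd2 replicate 3 (adjusted p = 8.48e-05). For gd18 against gd12 all 4 were called, at 3.41- to 5.56-fold.

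At pnd2 the Wnt5a probe sets parted. On 1448818_at the signals were 3013, 2313 and 540 at pnd2, against 3501, 4678 and 4368 at gd18, so the groups did not overlap. Its log2 change was -1.40 ± 0.45 (adjusted p = 0.142), and that of 1456976_at was -1.02 ± 0.27 (adjusted p = 0.0924), while 1437673_at differed by 0.30 ± 0.46. Replicate 3 had a large share in these values. Against the mean of its stage mates it lay 4.77-fold lower on 1448818_at and 2.19-fold lower on 1456976_at, but 3.46-fold higher on 1437673_at and 1.51-fold higher on 1436791_at. Over the 15 arrays 1448818_at correlated with 1437673_at at r = 0.43 and, without this array, at 0.98, and all 6 pairs of Wnt5a probe sets then lay between 0.92 and 0.98. These r describe arrays that share stages. With that array left out, the log2 change of pnd2 against gd18 was -0.65 ± 0.21 on 1448818_at (adjusted p = 0.132) and -0.65 ± 0.18 on 1456976_at (adjusted p = 0.0763), and 1437673_at turned to -0.30 ± 0.35. Where each probe set lies along the transcript is not used here, and the part of RNA quality in the split was not tested.

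**Figure D2:**
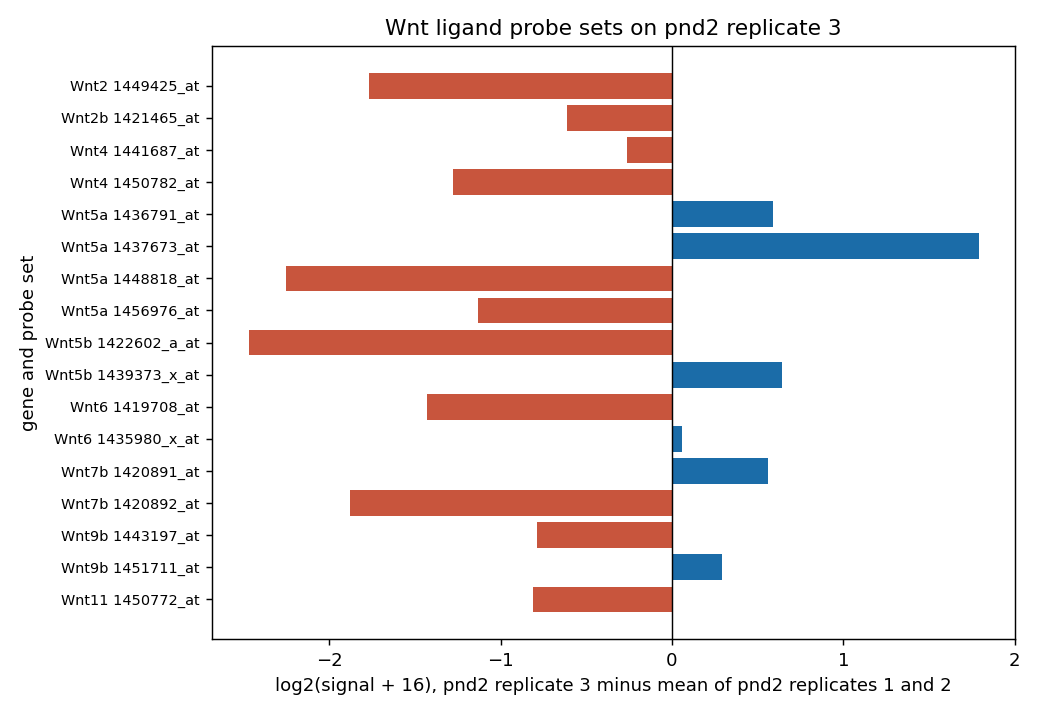
Difference in log2(signal + 16) between pnd2 replicate 3 and the mean of pnd2 replicates 1 and 2 (x axis) for each of the 17 Wnt ligand probe sets (y axis). Bars run from 0, red below and blue above. Probe sets of Wnt5a, Wnt5b, Wnt6, Wnt7b and Wnt9b point in both directions within 1 gene.

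Wnt4, which acts in mesonephric mesenchyme and drives tubule formation in the kidney, was highest at gd14 and lower at gd18 and pnd2. Probe set 1450782_at had 1440.5, 434 and 924 at gd12, 2093, 1980.5 and 1830.2 at gd14, 1209.8, 1675 and 1707 at gd16, 758, 726 and 859 at gd18, and 617, 684 and 257 at pnd2. All gd14 arrays lay above all arrays of the other 4 stages. The second probe set, 1441687_at, averaged 424 ± 247 at gd12, 886 ± 85.1 at gd14, 687 ± 218 at gd16, 231 ± 8.55 at gd18 and 189 ± 23.4 at pnd2 (SD, n = 3 each). Both passed the F test across stages (adjusted p = 0.00925 and 0.003), and they correlated at r = 0.90 over the 15 arrays.

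No single consecutive step of Wnt4 was called with all arrays. For gd14 against gd12 the log2 changes were 1.22 ± 0.38 on 1450782_at (2.33-fold, adjusted p = 0.0651) and 1.24 ± 0.38 on 1441687_at (2.35-fold, adjusted p = 0.0581). Both were called once pnd2 replicate 3 was left out, at the same sizes (adjusted p = 0.00552 and 0.018). For gd18 against gd16 the changes were -0.94 ± 0.38 (adjusted p = 0.687) and -1.46 ± 0.38 (adjusted p = 0.255), with no overlap of arrays on either probe set. The comparison of gd18 with gd14 was added after these values were seen. There 1441687_at was called at 3.65-fold lower in gd18 (-1.87 ± 0.38, adjusted p = 0.0197), and 1450782_at was not (-1.32 ± 0.38, 2.49-fold, adjusted p = 0.124). Without pnd2 replicate 3 both passed (adjusted p = 0.0041 and 0.0106), and the 1441687_at call was lost without any 1 of the 3 gd14 or 3 gd18 arrays (adjusted p = 0.0717 to 0.0927).

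The gd12 arrays disagreed on Wnt4. Replicate 14, the lowest on both Wnt4 probe sets, also had the lowest signal of the 15 arrays for Wnt9b 1443197_at. Its duct epithelium sum was 6992, against 7860 and 8498 on the other gd12 arrays. Of the 10 genes in that sum, 6 were lowest of the stage there (Krt8, Krt18, Krt19, Pax8, Cldn7, Grhl2) and 4 highest (Epcam, Cdh1, Lhx1, Esrp1). Its gonad marker sum was 7393, against 4347 on replicate 13, which had the highest Wnt4, and 7569 on replicate 15. Without replicate 13 the log2 change of gd14 against gd12 was 1.61 on 1450782_at and 1.64 on 1441687_at, both called (adjusted p = 0.0207 and 0.0151). Without replicate 14 it was 0.76 and 0.67, and neither was called (adjusted p = 0.282 and 0.212).

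Wnt6, a ligand of several embryonic epithelia, was the member with lower levels at gd14 than at gd12. Probe set 1419708_at had 525, 1021 and 945 at gd12, 426, 462 and 303 at gd14, 483, 449.6 and 562 at gd16, 515, 581 and 489 at gd18, and 539.99, 547 and 192 at pnd2. Every gd12 array lay above every gd14 array. The level was 2.00-fold lower at gd14 (SE 0.35 on the log2 scale, adjusted p = 0.0959). On 1435980_x_at, whose suffix marks probes that can bind related sequences, the stages overlapped (270 to 503 at gd12, 160 to 273 at gd14). The log2 change there was -0.95 ± 0.30 (adjusted p = 0.0649). Both probe sets were called with pnd2 replicate 3 left out (adjusted p = 0.00352 and 0.0229). From gd14 on, no step of either probe set was called, and the stage means ran from 397 to 528 on the first and from 205 to 289 on the second.

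Wnt9b, which the Wolffian duct epithelium makes, gave unlike values on its probe sets, and its gd12 arrays differed widely. Probe set 1443197_at had 160, 223 and 234 at gd14, against 237.7, 5.54 and 138 at gd12, so the groups overlapped. Its log2 change was 1.21 ± 0.66 (adjusted p = 0.31), and 1.44 ± 0.66 (adjusted p = 0.165) for gd18 against gd12. The second probe set, 1451711_at, was below the filter. It had 90.8, 55.1 and 100.2 at gd14 and 3.20, 6.56 and 9.21 at gd12, and all 12 later arrays lay above the 3 of gd12. In a fit with no filter its log2 change was 2.11 ± 0.49 (adjusted p = 0.0192), a size that depends on the constant of 16, since gd12 lies under it. The probe sets correlated at r = 0.31, so they give different accounts of the gene.

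Wnt7b, a ligand of epithelial tubes such as the kidney's collecting duct, was lowest on average at gd12. On 1420892_at the signals were 224, 147.5 and 82.2 at gd12, 238, 233 and 176 at gd14, 193, 277 and 128 at gd16, 288, 356 and 351 at gd18, and 353, 338 and 82.2 at pnd2. The gd18 arrays all lay above those of the 3 earlier stages, and pnd2 replicates 1 and 2 lay within the gd18 range. For gd18 against gd12 the log2 change was 1.14 ± 0.46 (2.21-fold, adjusted p = 0.107), called without pnd2 replicate 3 (adjusted p = 0.00781). The second probe set, 1420891_at, stayed between 4.17 and 22.7 on all 15 arrays and was below the filter. In a fit with no filter it had no called change (gd14 against gd12, 0.21 ± 0.30, adjusted p = 0.838).

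Wnt2, known from the foregut and lung mesoderm, had its highest mean at gd16. Its signals were 35.6, 55.8 and 62.9 at gd12, 136.5, 57.3 and 23.5 at gd14, 259, 138 and 191.5 at gd16, 102, 149 and 79.5 at gd18, and 107, 107 and 20.1 at pnd2. All gd16 arrays lay above those of gd12 and gd14. The log2 change of 1.44 ± 0.53 for gd16 against gd14 was not called (adjusted p = 0.766), nor was the F test (adjusted p = 0.136). The F test was called with pnd2 replicate 3 left out (adjusted p = 0.0369). Wnt2 passed the filter on 5 arrays, among them all 3 of gd16, and would not have passed without those. The filter therefore favoured a peak at gd16, and these values are a description of it. Its relative Wnt2b was at 2.81 to 84.3 on the 15 arrays, was below the median on all of them, and had its highest mean at gd14 (55.4 ± 25.6, SD, n = 3). In a fit with no filter Wnt2b had no called change (gd14 against gd12, 0.97 ± 0.54, adjusted p = 0.43).

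Wnt11, which marks the growing tips of the ureteric bud, and Wnt5b, the close relative of Wnt5a, had no called step. Wnt11 averaged 284 ± 93.8 at gd12, 320.1 ± 6.34 at gd14, 303 ± 83.9 at gd16, 231 ± 46.2 at gd18 and 168 ± 53.5 at pnd2 (SD, n = 3 each). All pnd2 arrays lay below all gd14 and gd16 arrays, and the F test had adjusted p = 0.156. Neighbouring stages in that order overlapped. Wnt5b 1422602_a_at lay between 121 and 231 on 14 arrays and at 20.5 on pnd2 replicate 3, and 1439373_x_at lay between 294 and 617, with F tests at adjusted p = 0.592 and 0.938.

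**Figure D3:**
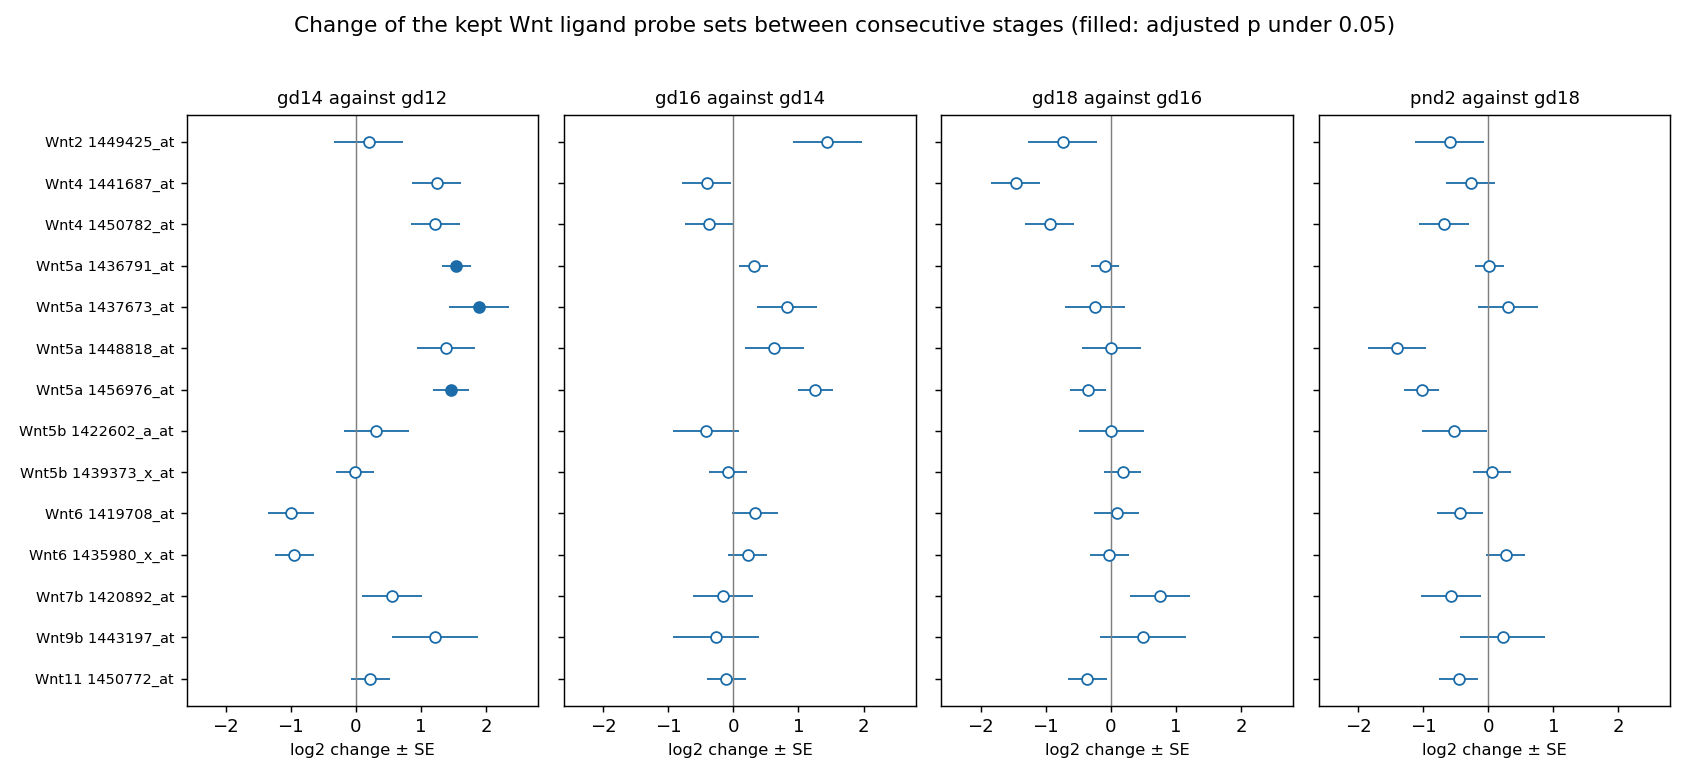
Log2 change with its SE (x axis) of the 14 tested Wnt ligand probe sets (y axis) in the 4 consecutive intervals, later minus earlier stage, over all 15 arrays. Filled points have an adjusted p under 0.05. The 3 filled points are all Wnt5a, in gd14 against gd12.

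Taken as a set, 3 of 14 tested probe sets were called for gd14 against gd12, all higher and all of Wnt5a, where 8.72% of all probe sets were called (5.08% higher, 3.63% lower). Their median log2 change was 0.88, against 0.07 over all probe sets tested. Without pnd2 replicate 3 there were 8, with 6 higher (Wnt4 and Wnt5a) and 2 lower (Wnt6), and 24.2% of all probe sets were called. For gd18 against gd12 the 4 Wnt5a probe sets were called, higher, beside 16.5% of all (9.44% higher, 7.09% lower), and Wnt7b joined them without that array, beside 33.8%. Across stages 6 of 14 passed the F test, the 4 of Wnt5a and 2 of Wnt4, beside 20.9% of all probe sets, and 9 without that array, beside 39.2%. Wnt2, whose gd16 peak the filter favoured, is 1 of these 9. Probe sets of 1 gene are not independent. By overlap alone, 8 of the 17 probe sets had all gd14 arrays above all gd12 arrays and 1 had them below, beside 21.5% and 17.0% of all probe sets tested. The 17 include those below the filter, which the shares leave out, and Wnt9b 1451711_at, below it, is 1 of the 8.

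For gd16 against gd14, gd18 against gd16 and pnd2 against gd18, limma called 0 of 14, and 2 had an unadjusted p under 0.05 in each. For gd16 against gd14, 0.0616% of all probe sets were called (0.0308% higher, 0.0308% lower). The shares were 0.142% (0.0962% higher, 0.0462% lower) for gd18 against gd16 and 0.558% (0.169% higher, 0.389% lower) for pnd2 against gd18. All arrays of the later stage lay above those of the earlier one for 4, 1 and 0 of the 17, beside 10.4%, 9.74% and 8.32% of all tested. They lay below for 3, 3 and 4, beside 9.95%, 9.92% and 13.8%. The 17 again include probe sets below the filter, such as Wnt2b, lower at gd16 than at gd14. Wnt2, favoured by the filter at gd16, is 1 of the 4. Leaving out pnd2 replicate 3, the calls were 1, 0 and 0, beside 0.731%, 1.02% and 1.78%. For gd16 against gd14, 8 probe sets of the whole array were higher and 8 lower, against 19 and 9 after quantile normalization. For pnd2 against gd18 the median change over all probe sets was -0.16 on the deposited scale, -0.03 after quantile normalization and 0.09 after median centring. The split of calls there was 44 higher and 101 lower, against 90 and 126, and 42 and 29. The median of the 14 Wnt ligand probe sets in this step was -0.44, and -0.16 with pnd2 replicate 3 left out. For gd18 against gd14, 1 of 14 was called, lower, beside 1.84% of all (1.19% higher, 0.647% lower), and 3 without that array, beside 6.47%.

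Markers of other cells moved over the same interval as Wnt5a, Wnt4 and Wnt6. The summed signal of 9 mesenchyme markers (collagens, Pdgfra, Dcn and others) was 125100 to 137900 at gd14, against 48910 to 63080 at gd12. Col1a2, Col3a1, Pdgfra, Pdgfrb, Dcn and Lum were higher on every gd14 array, and Col1a1 and Twist1 overlapped. Tcf21 was lower at gd14 (2651 to 3065, against 3463 to 4034). The sum of 10 duct epithelium markers was 11680 to 12880, against 6992 to 8498. Here Krt8, Krt18, Krt19, Cldn7 and Grhl2 were higher on every gd14 array, and Epcam, Cdh1, Pax8 and Lhx1 overlapped. Esrp1 was lower at gd14 (223 to 308, against 752 to 896). The sum of 10 gonad markers was 1435 to 2828 at gd14, against 4347 to 7569 at gd12, and that of 6 germ cell markers was 1062 to 1589, against 15350 to 23230. No gonad marker was listed at 0, and the members of the list differed. Nr5a1, Sox9, Dmrt1, Dhh and Gata4 were higher on every gd12 array than on any gd14 array. For Dhh the signals were 932 to 3161 at gd12, against 176 to 220 at gd14. Cyp17a1 went the other way, and Cyp11a1, Star, Hsd3b1 and Amh overlapped. Amh, a marker of Sertoli cells, lay between 3.92 and 38.4 on the 15 arrays. At gd16 the gonad sum reached 4443 on replicate 9, against 642 and 663 on the other arrays. Cyp17a1 was at 2211 there, against 8.5 and 23.3, and Cyp11a1, Star, Hsd3b1, Nr5a1 and Gata4 were also highest of the stage. Sox9 was lowest of the stage there, and Dmrt1, Dhh and Amh lay between the other arrays. On that array Wnt4 1441687_at was the lowest of its stage and Wnt4 1450782_at the highest. Nephron markers (6 on the array, 2 kept) summed to 285 to 329.6, against 509 to 835. Nphs1 and Slc12a1 were lower on every gd14 array, and Umod, Slc34a1, Six2 and Cited1 overlapped. The part of all these cell types in the changes was not tested, and in whole organs fewer cells of a type and less RNA per cell cannot be told apart.

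The genes with the pattern most like that of Wnt5a 1436791_at, among 11754 genes by Pearson correlation over the 15 arrays, were Kcnd3, a potassium channel subunit (r = 0.963), Celf2, an RNA-binding protein (0.957), and Col6a1, a collagen VI chain (0.955). For Wnt4 1450782_at they were Id3, an inhibitor of bHLH transcription factors (0.969), Efnb3, an ephrin (0.919), and Mgat3, a glycosyltransferase (0.914). Without pnd2 replicate 3 these 6 values were 0.862 to 0.962. The arrays share stages, so genes that change with stage correlate.

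On the array of whole newborns the Wnt5a probe sets had signals of 462 (1436791_at), 30.1 (1437673_at), 252 (1448818_at) and 75.1 (1456976_at), each below all 15 epididymis arrays. The pnd2 means were 6688, 1881, 1955 and 338. Both Wnt6 probe sets and Wnt5b 1439373_x_at also lay below all 15. Wnt2 at 424.5 and Wnt7b at 575 and 53.6 lay above them, and the other 7 probe sets lay within their range. This is 1 array of another age and label, so it gives no test. The share of all probe sets that lay outside the range of the 15 arrays was not taken. These places therefore have no baseline and are not read as a trait of the ligands.

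Of the 10 other mouse Wnt ligand genes, with 15 probe sets, 4 probe sets of Wnt7a, Wnt9a and Wnt10a were tested, and those of Wnt1, Wnt3, Wnt3a, Wnt8a, Wnt8b, Wnt10b and Wnt16 were not. Wnt7a, made by the epithelium of the Müllerian duct, which regresses in males, had a peak on 1423367_at. The signals were 40.3, 4.53 and 64.7 at gd12, 374, 386 and 311 at gd14, 74.8, 39.3 and 61.1 at gd16, 9.54, 59.3 and 11.8 at gd18, and 4.75, 26.9 and 3.48 at pnd2. It passed the filter only through its 3 gd14 arrays, so it had to differ there, and several signals of other stages lie under the constant of 16. Its values are therefore a description, with no fold or test. A second Wnt7a probe set, 1447647_at, had no called change (gd14 against gd12, -0.16 ± 0.40). Amhr2, the receptor of anti-Müllerian hormone in the mesenchyme around that duct, was at 1873 to 2652 at gd14, against 6288 to 8377 at gd12. The other genes on its marker list did not share this difference. Emx2 (1455 to 1583 at gd14, 1375 to 2256 at gd12), Dach2 (482 to 602, 302 to 576) and Wnt7a 1447647_at overlapped. Wnt9a 1436978_at averaged 191 ± 19.5 at gd12, 495.7 ± 37.4 at gd14, 810.4 ± 132 at gd16, 697 ± 70.9 at gd18 and 425 ± 82.2 at pnd2 (SD, n = 3 each), and was 2.47-fold higher at gd14 than at gd12 (1.30 ± 0.19, adjusted p = 0.000723).

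**Figure D4:**
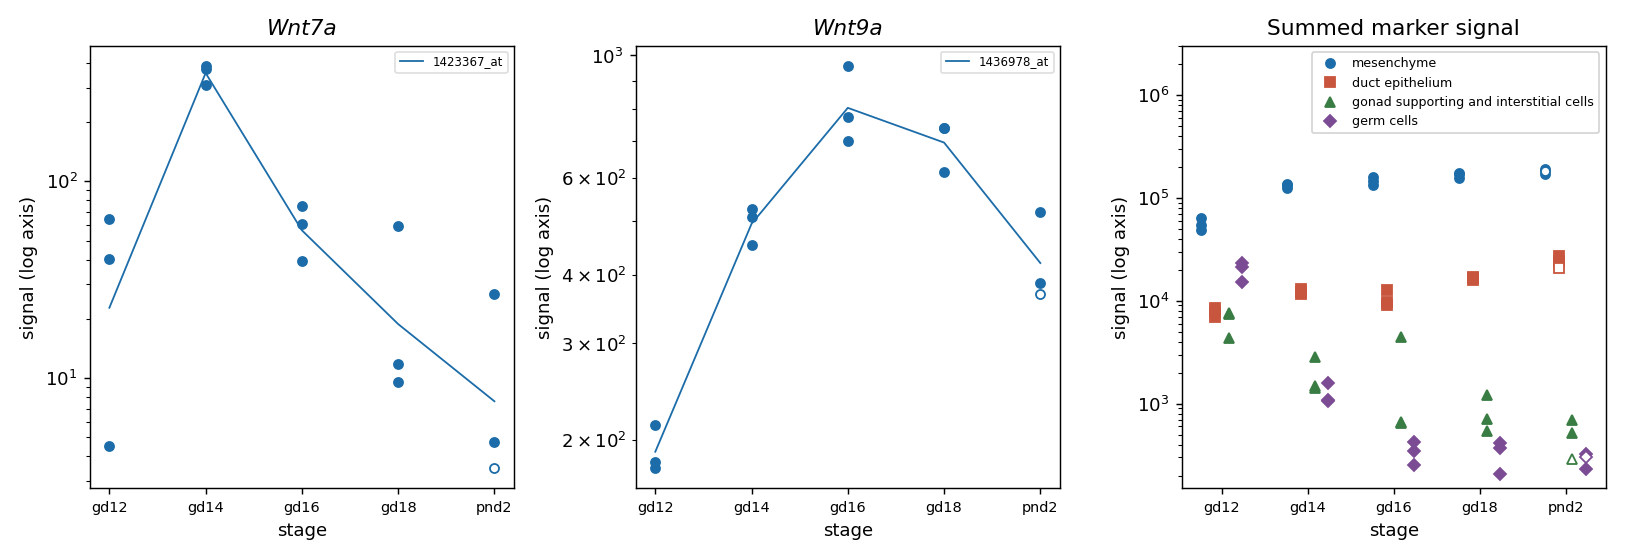
Signal of Wnt7a 1423367_at and Wnt9a 1436978_at on each array by stage, and summed signal of 4 marker lists (all log axes). Symbols are arrays (3 per stage), lines in the gene panels join geometric means, and open symbols are pnd2 replicate 3. Wnt7a was at 311 to 386 at gd14 and at or under 74.8 elsewhere, and germ cell markers were highest at gd12.

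In the rest of the pathway, 27 of 66 tested probe sets of receptors, secretion factors, secreted modulators and targets were called for gd14 against gd12, 24 higher and 3 lower (median 0.86), beside 8.72% of all probe sets (5.08% higher, 3.63% lower). The later intervals had 0, 1 and 0 calls, the 1 being Wif1, a secreted Wnt inhibitor, with 48.7, 33.9 and 12.9 at gd18, against 199, 157 and 221 at gd16. Wif1 passed the filter only through its gd14 and gd16 arrays, so the filter favoured both this fall and a rise from gd12 to gd14. It remains among the 66 tested. With pnd2 replicate 3 left out, 39 of 64 were called for gd14 against gd12, 34 higher and 5 lower, beside 24.2% of all. Among 24 receptor probe sets 7 rose and 1 fell. The receptors of Wnt5a-type signals, Ror2 (2.46-fold on 1423428_at, adjusted p = 0.00241) and Ror1 (2.54-fold on 1429313_at, adjusted p = 0.0325), rose in this step, as did Fzd1, Fzd2, Fzd6 and Lrp6 at 1.90- to 2.50-fold, and Fzd5 fell 1.96-fold. Ror1 1429313_at was lower again at gd18 than at gd14 (-1.53 ± 0.36, adjusted p = 0.0467, and 0.0121 without pnd2 replicate 3). Ror2 1423428_at had a log2 change of -0.91 ± 0.23 there (adjusted p = 0.0658), called without pnd2 replicate 3 (adjusted p = 0.017). The other Ror2 probe set, 1457128_at, averaged 784.3 at gd14, 849.6 at gd16 and 541 at gd18. Its arrays of gd14 and gd18 overlapped. Wls, the export factor of Wnt proteins, rose 1.53-fold (0.61 ± 0.18, adjusted p = 0.0428), 1 of 4 secretion probe sets. Of 18 secreted modulator probe sets 8 rose and 0 fell, and of 20 target and feedback probe sets 8 rose, those of Nkd1 and Apcdd1, and 2 fell, both of Lgr5. Lgr5 1444519_at passed the filter only through its 3 gd12 arrays, so its lower level at gd14 was built in, while 1450988_at passed on all 15. Without being called in that step, Axin2, a direct target of beta-catenin, was 1.85-fold higher at gd18 than at gd12 on 1436845_at (0.89 ± 0.26, adjusted p = 0.0307). Lef1 1454734_at, on the same list, went the other way, with 232 to 257 at gd18, against 403 to 615 at gd12. For gd18 against gd12, 10 of the 20 target and feedback probe sets were called, 9 higher and 1 lower. Of all probe sets, 16.5% were called (9.44% higher, 7.09% lower).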

How the data were processed

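The deposited table holds linear signal intensity values for 45101 probe sets and 16 arrays. Per the labels' protocols, whole epididymides were amplified in the Affymetrix two-cycle procedure (2 rounds) and labelled with biotin. The submitters' processing notes name GCOS for the deposited values, and no source used here names the signal algorithm or its version. The mean without the lowest and highest 2% of probe sets was 500 on every array as deposited, as after scaling to a common mean. Arrays have no counting depth, and their number, 3 per stage, limits precision. No 2 arrays held identical values (highest correlation 0.959).

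Of the 45101 probe sets, 64 controls were left out; 34945 have 1 gene symbol, 932 several and 9160 are not listed. The gene IDs of all 9 members carry the same symbols in the reference table. Values were taken as log2(signal + 16), filtered at the array median on 3 of 15 arrays (25981 kept) and fitted with limma 3.58.1 in R 4.3.3, with 1 mean per stage over the 15 epididymis arrays and an intensity trend. Adjustment (Benjamini-Hochberg) was over all kept probe sets within a comparison. All probe sets of a gene were tested, since they disagree for several members. Marker sums use the brightest probe set of each gene. The fit was run on simulated data with independent noise and changes set at gd14 only. That run does not cover a deviating array such as pnd2 replicate 3 or probe sets that vary together. All probe sets of the members are named, with called genes of fixed pathway lists and the 3 genes of most like pattern per member that passed the F test. The members and lists were chosen with earlier results of these data known. The comparison of gd18 with gd14 was added after the Wnt4 values were seen.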

Additional observations from a re-analysis of the deposited data

How the results depend on the processing

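For gd14 against gd12 (3 called), 7 were called after quantile normalization, 5 after median centring, 1 with the brightest probe set per gene, which tests 1 of the 4 Wnt5a probe sets, 8 with array quality weights, 7 without pnd2 replicate 3, gd14 replicate 10 and gd16 replicate 9, and 8 in a fit to the 6 arrays compared. For gd16 against gd14 (0), 1 was called with quantile normalization, quality weights or without the 3 arrays, and 3 with the 6 arrays. For gd18 against gd16 (0) and pnd2 against gd18 (0), quality weights gave 2 and 1, and the fit to 6 arrays gave 2 for gd18 against gd16. For gd18 against gd12 (4) the brightest probe set gave 1 and quality weights 8, and for any change over the 5 stages (6) the brightest gave 2. For gd18 against gd14 (1), quantile normalization gave 3, the brightest probe set 0, quality weights 4, an adjusted p of 0.01 0, leaving out the 3 arrays 2 and the 6 arrays 5.

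Leaving out 1 array at a time gave 2 to 8 for gd14 against gd12 (6 without gd12 replicate 13), 0 to 1 for gd16 against gd14 and for gd18 against gd16 (1 without gd12 replicate 14), 0 to 2 for pnd2 against gd18 (2 without pnd2 replicate 1), 4 to 6 for gd18 against gd12, 0 to 3 for gd18 against gd14 and 5 to 9 for any change. Constants of 1 and 64, no filter, a filter at 6 arrays and no trend moved no count by over 1.5 times. Of 84 single changes tested 8 were called. Of these, 6 kept the call in all 25 to 27 settings and 2 lost it in some, while 21 others were called in some. No called change turned direction. Apart from the arrays named, the causes were not tested. No paired analysis was possible because the replicate numbers do not repeat between stages.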
